A study of Arabidopsis thaliana with 24 samples.

Results

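The 32 genes described here were lowered in both quadruple atx mutants of Arabidopsis thaliana and stayed near the wild-type level in the atx1/2 and atx4/5 mutants. They were chosen by measured values. With L as log2(group mean + 1) less that of Col-0, the wild-type accession, a gene had to have a Col-0 mean of at least 20, L of -1.5 or less in both atx1/2/4/5 and atx2/3/4/5, and L between -0.5 and 0.5 in both atx1/2 and atx4/5. Of 32548 genes in the table, 19444 reached that Col-0 level, 183 of these were lowered in both quadruple mutants, and 32 of the 183 (17.5%) were near the Col-0 level in atx1/2 and atx4/5. With the column totals of all libraries set equal, the rule took 18 genes, all of them among the 32. Among the other 151 lowered genes, 140 had L below -0.5 in atx4/5, 44 had it in atx1/2, 34 had it in both, and 5 had L above 0.5 in atx1/2 or atx4/5.

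RNA was sequenced from whole seedlings at an age of 11 days, kept on plates in cycles of 16 h light (23 °C) and 8 h dark (22 °C). The series holds 24 libraries in 3 separately normalised tables, and every genotype has 2 libraries in its table. The rule used set 3, which holds the 4 atx genotypes, jmj24/26/28, WDR5A_RNAi and Col-0 and was taken as normalised together. The WDR5A_RNAi columns are written with at most 10 digits and the other columns with up to 19. The sources used here do not say why. Genotypes jmj24 and atx4/5;jmj24 belong to set 2 and ino80 to set 1, each with Col-0 libraries of its own. The question in the title of the series is how far COMPASS complexes act redundantly. The labels give the mutant alleles as homozygous, and WDR5A_RNAi as a line with an RNA interference construct against WDR5A. The atx4 and atx5 mutations are shared by atx4/5, both quadruple mutants and atx4/5;jmj24, atx2 is shared by atx1/2 and both quadruple mutants, atx1 is in atx1/2 and atx1/2/4/5, and atx3 is in atx2/3/4/5 alone. Nothing in the labels says whether the 2 libraries of a genotype came from separate cultures, so p-values cover only the spread between libraries, and that spread may be technical.

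COMPASS complexes place methyl groups on lysine 4 of histone H3, a mark found at the start of transcribed genes. In Arabidopsis the ATX proteins are among the enzymes of these complexes. ATX1 and ATX2 are close relatives of the Trithorax type, ATX3, ATX4 and ATX5 form a second branch, and WDR5A is a core subunit that the enzymes share. JMJ24, JMJ26 and JMJ28 are proteins with a JmjC domain, the domain of many histone demethylases, and INO80 is the motor of a complex that remodels nucleosomes.

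Values are a normalised signal per gene, close to a read count and not scaled for gene length, so levels are compared between libraries and not between genes. Libraries had an estimated 18.8 to 19.1 M reads (set 1), 24.6 to 27.8 M reads (set 2) or 22.8 to 32.7 M reads (set 3), and a value of 10 rests on about 10 reads. The column totals of set 3 were 25.2 to 26.2 M in the quadruple mutants and 27.8 to 29.2 M in the other genotypes. ATX4 lay between 21.2 and 50.7 in the 6 libraries of set 3 labelled with atx4, against 503 and 498 in Col-0. ATX5 lay between 31.9 and 237 in the same libraries, against 472 and 547. In atx4/5;jmj24 of set 2, ATX4 was at 144 and 114 against 495 and 452 in Col-0, but ATX5 was at 518 and 638, above the 434 and 476 of Col-0 and below the 819 and 813 of jmj24. JMJ24 lay between 245 and 321 in the 6 libraries labelled with its mutation, against 1416 to 1566 in Col-0 of sets 2 and 3. JMJ26 was at 0 and 0.99 in jmj24/26/28 against 152 and 176, JMJ28 at 273 and 313 against 596 and 556, and INO80 at 892 and 858 in ino80 against 1701 and 1798. Like ATX5 in atx4/5;jmj24, ATX1, ATX2, ATX3 and WDR5A did not follow the labels in every library. ATX1 was at 258 and 257 in Col-0, 181 and 181 in atx1/2, but 568 and 191 in the 2 libraries labelled atx1/2/4/5. ATX2 lay between 1313 and 1382 in the libraries labelled atx2, inside the Col-0 values of 1273 and 1393. ATX3 was higher in the libraries labelled atx2/3/4/5 (740.5 and 640) than in Col-0 (388 and 384), and WDR5A was higher in the libraries labelled WDR5A_RNAi (870.3 and 965) than in Col-0 (86.9 and 113). Which stretch of each gene is altered is not given in the sources used here, so these levels check those labels only in part, and genotypes are used as labelled. Without the first atx1/2/4/5 library, the one with ATX1 at 568, the rule took 43 genes, among them 30 of the 32.

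The 32 genes lay on all 5 chromosomes, with 9 on chromosome 1, 5 on 2, 8 on 3, 1 on 4 and 9 on 5. No member lay within 20 kb of another. Of the 64 nearest expressed genes on either side of the members, 0 were lowered in both quadruple mutants, against 0.941% of the 19444 genes. With a share that low, 64 genes cannot show a difference. The median L of these neighbours was -0.05 in atx1/2/4/5 and -0.07 in atx2/3/4/5. Some lay lower without passing both limits, such as AT1G67860 (-1.44 and -1.09) and AT1G67870 (-1.28 and -1.02) on either side of AT1G67865. GASA6 beside AT1G74675 did too (-1.10 and -2.06), and AT3G55700 beside AT3G55710 was higher (1.45 and 0.93). The median length was 1986 bases against 2083 in the other 151 lowered genes and 2421 in all genes at the Col-0 level, and the median number of exons was 2.5 against 4 and 4. A single exon was annotated in 6 members (18.8%), close to the 17.2% and 15.2% of the other groups. These are descriptions, and the differences were not tested.

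The 250 bases before each start site were searched on both strands for 10 short motifs: CACGTG is the G-box, AAACCCTA the telo-box, GAGAGA the GAGA repeat, TTGACC the W-box, TATAAA the TATA box, AAAATATCT the evening element, TGGGCC site II, TGTCTC the auxin response element, GATAAG the I-box and GAANNTTC the paired heat shock sites. The telo-box, a motif known from promoters of ribosomal protein genes and bound by Polycomb recruiters in Arabidopsis, was in 3 of the 32 windows (9.38%), 3.31% of those of the other lowered genes and 3.54% of all 19441 windows. The GAGA repeat was in 21.9% of the member windows and 19.3% of all windows, and the G-box was in 6.25% and 7.38%. The other 7 motifs were in 3.13% to 43.8% of member windows and 2.45% to 46.2% of all windows. With 32 windows, 1 window is about 3 percentage points, and a match is only a run of letters. The windows of NAP, P1R3 and AT3G44716 are shown because NAP is the senescence factor among the members, P1R3 has the lowest L in atx2/3/4/5, and P1R3 and AT3G44716 carry the telo-box. Capitals mark motif matches: the G-box in NAP, the telo-box in P1R3, and in AT3G44716 the telo-box as its reverse complement, a GAGA repeat, a site II element and I-boxes. The sequences are from RefSeq TAIR10.1, plus strand, at chr1:26121830-26122079, chr3:11278125-11278374 and chr3:16262796-16263045, none of which overlaps an annotated gene.
NAP: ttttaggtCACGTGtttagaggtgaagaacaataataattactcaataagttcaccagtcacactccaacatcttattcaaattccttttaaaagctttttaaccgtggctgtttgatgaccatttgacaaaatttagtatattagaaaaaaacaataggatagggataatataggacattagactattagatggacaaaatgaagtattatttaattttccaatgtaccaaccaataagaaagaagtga
P1R3: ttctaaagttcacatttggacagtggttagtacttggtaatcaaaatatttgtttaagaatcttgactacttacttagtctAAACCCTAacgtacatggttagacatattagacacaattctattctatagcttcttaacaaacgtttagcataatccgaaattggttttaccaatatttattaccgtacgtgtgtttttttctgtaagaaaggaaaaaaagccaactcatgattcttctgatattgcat
AT3G44716: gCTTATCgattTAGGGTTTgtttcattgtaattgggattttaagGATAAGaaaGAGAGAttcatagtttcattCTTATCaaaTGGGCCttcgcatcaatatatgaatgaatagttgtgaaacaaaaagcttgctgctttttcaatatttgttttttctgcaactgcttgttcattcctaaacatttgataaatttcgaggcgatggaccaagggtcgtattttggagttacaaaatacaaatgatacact

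By the rule, L was at or below -1.5 in both quadruple mutants, and the values here describe the choice and test nothing. The background of the rule was 1.82% of the 19444 genes in atx1/2/4/5, 2.30% in atx2/3/4/5 and 0.941% in both. The median L of the 32 was -1.93 in atx1/2/4/5, with a range from -3.17 to -1.52, and -1.90 in atx2/3/4/5, with a range from -3.61 to -1.5003. In atx1/2 the median was -0.06 and 18 members lay below 0, against 52.2% of the 19444 genes. In atx4/5 the median was -0.25 and 24 members lay below 0, against 47.3% of the 19444 genes. Most members thus sat slightly under the Col-0 level in atx4/5 while inside the limits of the rule. Col-0 means ran from 21.9 to 1827 with a median of 220.1, against 480.1 over all 19444 genes. In all 32 genes the 4 quadruple-mutant libraries lay below every Col-0, atx1/2 and atx4/5 library, which the choice largely fixes.

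**Figure D1:**
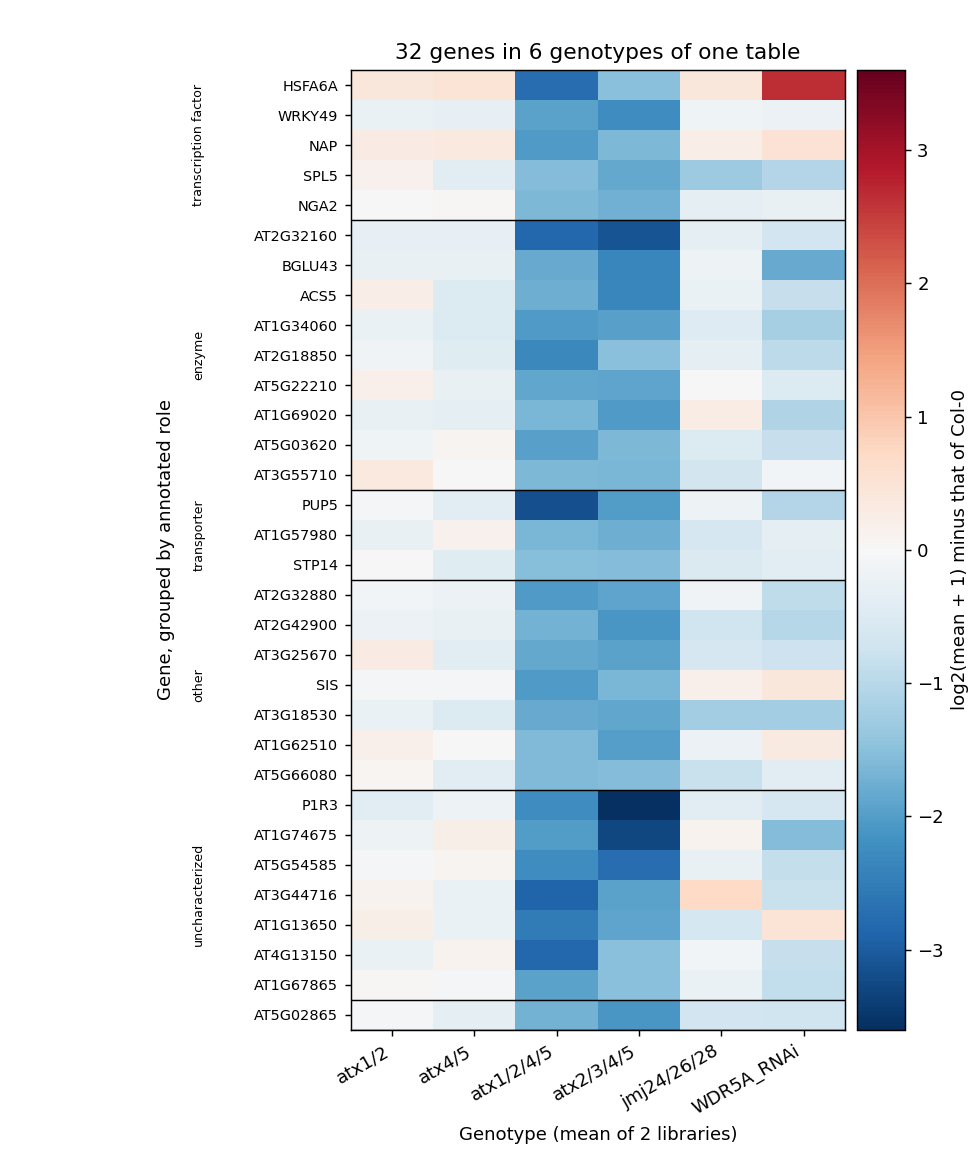
L, the log2 difference from the Col-0 mean, of each of the 32 genes (rows) in the genotypes of set 3 (columns). The medians of the 32 are -1.93 and -1.90 in atx1/2/4/5 and atx2/3/4/5, the columns that chose the genes, and -0.29 and -0.78 in jmj24/26/28 and WDR5A_RNAi, which did not.

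At the limits, the values just inside and just outside were close. STP14 had L of -1.52 in atx1/2/4/5 and was taken, and WNK2 (-1.4993) and AT3G03870 (-1.49) were not. In atx2/3/4/5, HSFA6A (-1.5003) and AT4G13150 (-1.5034) were taken, and CYP71B35 with -1.47 and AT3G59580 with -1.42 were not. P1R3 was near the lower limit in atx1/2 with L of -0.37, and AT1G24210 (-0.52) and AT3G57320 (-0.55) were outside. AT3G18530, with L of -0.50 in atx4/5, was inside, and AT4G32990 and AT3G52526, both at -0.51, were outside. SPL5 had the lowest Col-0 mean taken, 21.9, and AT5G03620 the next at 27.5. AT5G03020 at 16.9 and AT2G24692 at 10.5 met every other limit.

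The members included 5 transcription factors. Equal column totals moved the median of all genes by 0.14 in atx1/2/4/5 and 0.19 in atx2/3/4/5. L of NGA2 (-1.62) and SPL5 (-1.57) in atx1/2/4/5 lay closer than that to the limit of -1.5. So did L of NAP (-1.62) and HSFA6A (-1.5003) in atx2/3/4/5. The membership of these genes thus depends on how the libraries are scaled. NAP, a NAC factor that promotes leaf senescence, was at 331 and 394 in Col-0, 356 and 532 in atx1/2, 410 and 518 in atx4/5, 111 and 64.2 in atx1/2/4/5, and 120 and 114 in atx2/3/4/5. Its quadruple-mutant values were thus 4.15-fold and 3.09-fold below Col-0. NGA2, a B3-domain factor of leaf and organ development, was at 176 and 240 in Col-0, between 197 and 227 in atx1/2 and atx4/5, 58.7 and 75.1 in atx1/2/4/5, and 77.6 and 46.2 in atx2/3/4/5. Both quadruple mutants overlapped for NGA2 and stood clear of the other genotypes named. WRKY49, of the WRKY family, was at 69.4 and 47.7 in Col-0, 14.8 and 14.6 in atx1/2/4/5, and 5.28 and 18.1 in atx2/3/4/5.

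SPL5 and HSFA6A were the transcription factors with few reads. SPL5, a target of miR156 that acts in the change from juvenile to adult growth, was at 18.4 and 25.4 in Col-0, 8.82 and 4.66 in atx1/2/4/5, and 9.27 and 1.40 in atx2/3/4/5. HSFA6A, a class A heat stress factor, was at 16.4 and 40.1 in Col-0, 24.1 and 51.4 in atx1/2, 17.5 and 62.7 in atx4/5, 5.34 and 1.45 in atx1/2/4/5, and 8.32 and 10.4 in atx2/3/4/5. The first library of each of Col-0, atx1/2 and atx4/5 was low and the second high for HSFA6A. Its membership is fragile: it stayed a member in 5 of the 10 recounts that left out 1 library.

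Of the 9 enzyme genes, ACS5, one of the enzymes that make the ethylene precursor ACC, was at 97.1 and 107 in Col-0, 115 and 129 in atx1/2, 73.3 and 72.9 in atx4/5, 24.9 and 33.6 in atx1/2/4/5, and 19.7 and 18.6 in atx2/3/4/5. BGLU43, a beta-glucosidase of the family that cleaves sugars from small molecules, was at 86.8 and 84.9 in Col-0 and 28.1, 19.1, 14.5 and 17.3 in the quadruple-mutant libraries. AT2G32160, annotated as a methyltransferase that uses S-adenosylmethionine, was at 235 and 319 in Col-0, between 215 and 235 in atx1/2 and atx4/5, 53.9 and 22.3 in atx1/2/4/5, and 26.0 and 36.8 in atx2/3/4/5. It stood 7.27-fold and 8.82-fold below Col-0, the lowest of the enzymes in both. The other 6 are AT1G34060 (a transferase that uses pyridoxal phosphate), AT1G69020 (a prolyl oligopeptidase), AT2G18850 (a protein with a SET domain), AT3G55710 (a UDP-glycosyltransferase), AT5G03620 (a subtilisin-like protease) and AT5G22210 (annotated as an amidotransferase subunit). AT2G18850 was at 284 and 317 in Col-0, 62.7 and 57.3 in atx1/2/4/5, and 81.2 and 128 in atx2/3/4/5. AT1G34060 was at 524 and 425 in Col-0 and between 77.3 and 153 in the 4 quadruple-mutant libraries, with AT3G55710 at 260.4 and 222 against 57.9 to 97.4. AT5G22210 was at 258 and 206 in Col-0 and between 55.1 and 68.2 in the quadruple mutants. AT1G69020 (89.9 and 106 in Col-0) and AT5G03620 (28.6 and 26.3) were between 19.8 and 30.8 and between 3.82 and 8.85 there. Over the 9 enzymes the median L was -1.88 in atx1/2/4/5 and -1.95 in atx2/3/4/5.

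The 3 transporter genes were PUP5, STP14 and AT1G57980. PUP5, of a family that moves purine bases and related compounds, was at 170.6 and 169.8 in Col-0, 157 and 166 in atx1/2, 139 and 119 in atx4/5, 18.2 and 17.8 in atx1/2/4/5, and 52.7 and 30.9 in atx2/3/4/5. It was 9.45-fold below Col-0 in atx1/2/4/5 and 4.07-fold in atx2/3/4/5, and the libraries of the quadruple mutants did not overlap. STP14, a sugar transporter, was at 822 and 629 in Col-0, 550.2 and 527 in atx4/5, 289 and 216 in atx1/2/4/5, and 254 and 234 in atx2/3/4/5. AT1G57980, of the nucleotide-sugar transporter family, was at 337 and 293 in Col-0, 381 and 320.0 in atx4/5, and between 81.9 and 113 in the quadruple mutants. For STP14 and AT1G57980 the libraries of the quadruple mutants overlapped.

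Among the 7 members placed in no such role, AT5G66080, a protein phosphatase of the 2C type, was at 671 and 605 in Col-0, 694 and 652 in atx1/2, 449 and 503 in atx4/5, 225 and 196 in atx1/2/4/5, and 205 and 228 in atx2/3/4/5. SIS was at 1098 and 1361 in Col-0 and between 245 and 432 in the 4 quadruple-mutant libraries. The others are AT1G62510 (of the lipid transfer protein and 2S albumin family), AT2G32880 (with a TRAF-like domain), AT2G42900 (a plant basic secretory protein), AT3G18530 (with ARM repeats) and AT3G25670 (with leucine-rich repeats). AT2G32880 was at 1343 and 1372 in Col-0 and between 262 and 394 in the quadruple mutants, and AT2G42900 was at 191 and 150.2 against 37.3 to 57.7. AT3G25670 was at 166 and 187 in Col-0, 219 and 217 in atx1/2, 126 and 144 in atx4/5, and between 39.9 and 51.4 in the quadruple mutants. AT1G62510 (296 and 363 in Col-0) was between 69.1 and 148 there, and AT3G18530 (24.6 and 36.2) between 5.03 and 10.8. The median L of the 7 was -1.82 in atx1/2/4/5 and -1.89 in atx2/3/4/5.

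The 7 genes with no assigned role included P1R3, with the lowest L in atx2/3/4/5. P1R3, at chr3:11278375-11279214, was at 118 and 92.6 in Col-0, 113 and 49.8 in atx1/2, 99.8 and 87.6 in atx4/5, 26.4 and 16.6 in atx1/2/4/5, and 5.23 and 10.3 in atx2/3/4/5. It stood 4.91-fold below Col-0 in atx1/2/4/5 and 13.6-fold in atx2/3/4/5. AT3G44716 had the opposite order, with 42.9 and 49.8 in Col-0, 4.26 and 6.58 in atx1/2/4/5, and 12.4 and 10.5 in atx2/3/4/5. AT4G13150 was at 742 and 686 in Col-0, 109.9 and 88.4 in atx1/2/4/5, and 233 and 270.1 in atx2/3/4/5. AT1G13650 was at 1308 and 1240 in Col-0, 254 and 187 in atx1/2/4/5, and 357 and 320 in atx2/3/4/5. AT1G67865 had the highest Col-0 mean, with 1809 and 1845, and lay between 446 and 656 in the quadruple mutants. AT1G74675 was at 45.0 and 55.7 in Col-0, 15.0 and 8.62 in atx1/2/4/5, and 6.19 and 2.46 in atx2/3/4/5, the same order as P1R3. AT5G54585 was at 367 and 406 in Col-0, 97.2 and 65.4 in atx1/2/4/5, and 57.0 and 55.8 in atx2/3/4/5. AT5G02865, annotated as a noncoding RNA, was at 62.4 and 75.2 in Col-0 and between 12.5 and 20.9 in the quadruple mutants.

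**Figure D2:**
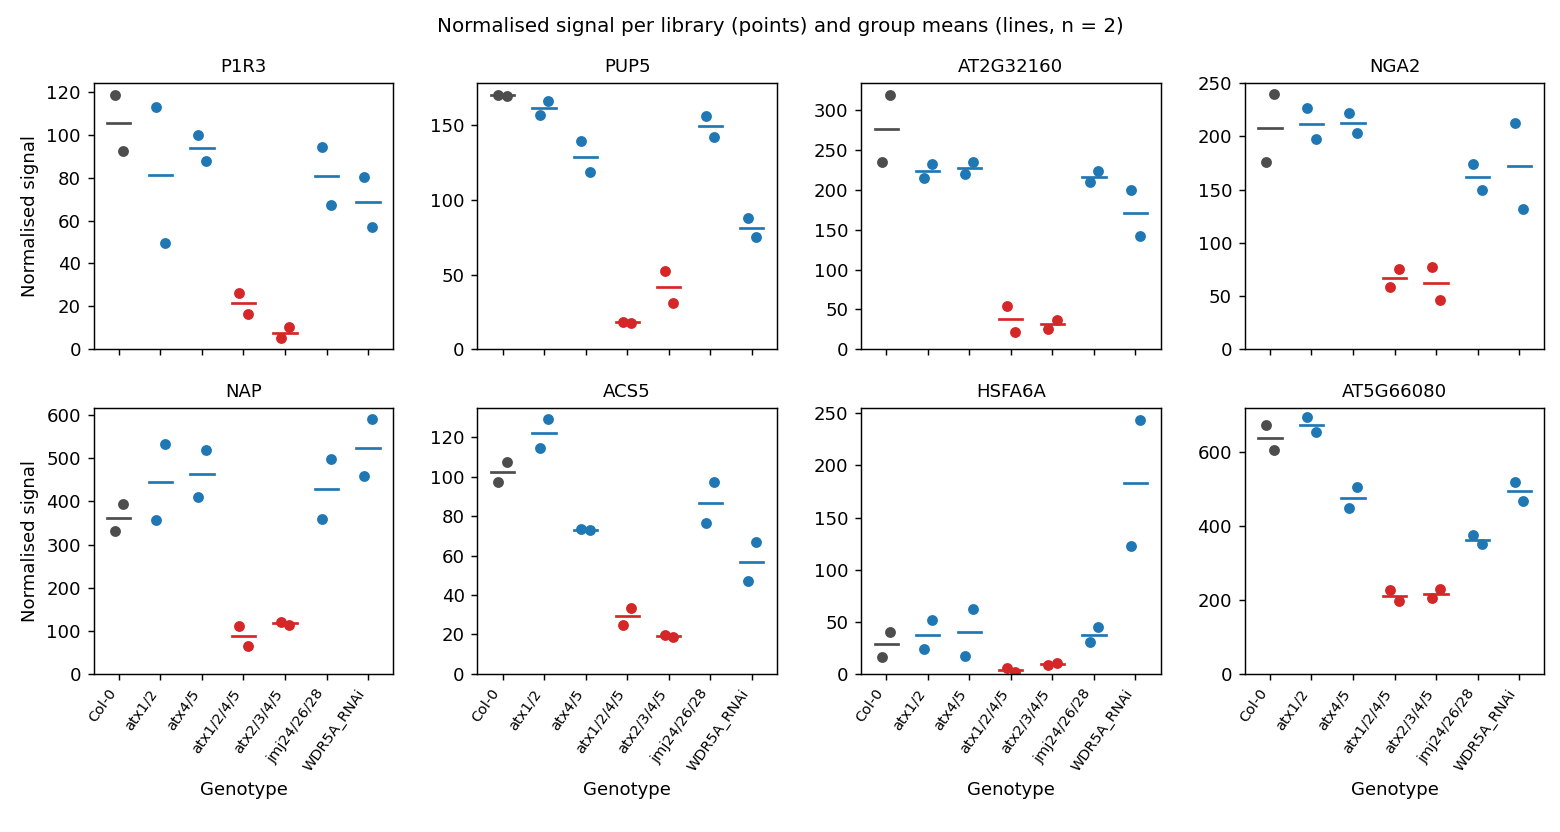
Normalised signal of 8 members in each library of set 3 (points), grouped by genotype, with lines at group means. In every panel the 4 libraries of atx1/2/4/5 and atx2/3/4/5 lie below the 6 libraries of Col-0, atx1/2 and atx4/5, which the choice of the genes largely fixes.

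The quadruple mutants were not ordered the same way over the 32 genes. L was lower in atx1/2/4/5 in 13 members and lower in atx2/3/4/5 in 19. The atx1/2/4/5 libraries lay entirely below those of atx2/3/4/5 in 8 members, the reverse held in 8, and the libraries overlapped in 16. PUP5, AT3G44716 and AT4G13150 were among the first 8 and P1R3 was among the second. The rule used these libraries, and the same counts were not made over all genes. These orders were not tested.

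Several members share reads or position with other genes. 6 members overlap another annotated gene, 5 of them on the opposite strand, and the counting strand is not given in the sources used here, so reads of the pair cannot be told apart. The partner was lower too for AT1G74675, where GASA6 had a mean of 8951 in Col-0 and 4162 and 2152 in the quadruple mutants. BIM2, the partner of AT1G69020, went from 786 to 577 and 622. The partners of SPL5 and SIS stayed near their Col-0 means, at 729 against 852 and 806 for AT3G15260 and 393 against 369 and 432 for ROPGEF7. AT3G18530 matches AT3G01450 at 94.7% identity over 412 bases, so its counts are uncertain.

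The remaining genotypes were not used to choose the genes, and each was tested with limma, 2-sided, over all genes of its table, with Benjamini-Hochberg adjustment and a threshold of 0.05. In ino80, against the Col-0 libraries of set 1, 13 of the 32 members were called lower and 0 higher, against a background of 11.7% lower and 10.7% higher over 22934 genes. The median log2 fold change of the 32 was -0.54, and 26 lay below 0, against 49.9% of all genes tested. In 21 the unadjusted limma p was under 0.05, a share not counted over all genes. NGA2 was at 131 and 115 in Col-0 and 24.0 and 28.3 in ino80, a log2 fold change of -2.19 ± 0.20 (SE, limma adjusted p = 9.93e-05). AT5G66080 was at 151 and 286 in Col-0 and 19.2 and 21.4 in ino80, a log2 fold change of -3.29 ± 0.29 (limma adjusted p = 0.000296). STP14 was at 340.4 and 419 in Col-0 and 166 and 161 in ino80, a log2 fold change of -1.21 ± 0.12 (limma adjusted p = 0.000161). HSFA6A (-1.56 ± 0.37, limma adjusted p = 0.0134) and P1R3 (-1.35 ± 0.29, limma adjusted p = 0.00916) were also called lower. AT3G55710, AT1G57980, AT2G42900, AT3G25670, AT1G13650, AT2G32880, AT1G74675 and AT5G02865 make up the rest, with log2 fold changes from -1.59 to -0.34.

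The median log2 fold change of the members in ino80 was -0.54 with all libraries of set 1. It was -0.40 without the first ino80 library and -0.65 without the second. Without the first Col-0 library it was -0.56, and without the second -0.53. Calls were lost when 1 library was left out, but such a fit leaves 1 library in a group. A lost call thus does not show that a fold change rested on 1 library. Of the 13, 3 stayed called without the first ino80 library, 3 without the second (where 1 further member was called), 10 without the first Col-0 library of set 1 and 8 without the second. Of 16 nuclear photosynthesis genes, 14 were called lower in ino80 as well, and their part in these values was not tested. With all libraries of set 1, 4 of the 13 members stayed called without the mean-variance trend in limma. Without the filter on low values 0 did. The limma adjusted p of NGA2 was 0.0311 without the trend and 0.0969 without the filter. NGA2 was the only member called whichever of the 4 libraries was left out.

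In jmj24, against the Col-0 libraries of set 2, 2 members were called lower and 0 higher, against a background of 1.43% lower and 1.39% higher. AT3G55710, the UDP-glycosyltransferase, was at 450.4 and 539 in Col-0 and 286 and 322 in jmj24, a log2 fold change of -0.70 ± 0.13 (limma adjusted p = 0.0125). AT3G18530 was at 44.3 and 38.3 in Col-0 and 13.2 and 18.0 in jmj24, a log2 fold change of -1.36 ± 0.32 (limma adjusted p = 0.0475). When 1 library was left out, 1 of these calls remained without the first Col-0 library of set 2, and 0 remained without the second or without either jmj24 library. The median over the 32 was -0.28, and 26 lay below 0, against 50.0% of all genes tested.

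By its label atx4/5;jmj24 adds jmj24 to atx4/5, though ATX5 was not below Col-0 in it. Against Col-0, 6 members were called lower and 1 higher in atx4/5;jmj24, with a background of 4.51% lower and 3.20% higher. STP14 was at 838 and 814 in Col-0, 769 and 731 in jmj24, and 519 and 597 in atx4/5;jmj24, a log2 fold change against Col-0 of -0.57 ± 0.09 (limma adjusted p = 0.00179). It was the only member called whichever library was left out, but its call was lost without the mean-variance trend in limma (adjusted p = 0.108) and without the filter on low values (adjusted p = 0.196). Without the trend AT1G13650 was the 1 member still called. PUP5 was at 147 and 125 in Col-0 and 74.2 and 76.3 in atx4/5;jmj24 (-0.84 ± 0.19, limma adjusted p = 0.0171), and AT1G69020, AT1G13650, AT2G42900 and AT3G25670 were also lower. AT1G62510 was higher, at 103 and 69.6 in Col-0 and 155 and 221 in atx4/5;jmj24 (1.12 ± 0.23, limma adjusted p = 0.0112). Against jmj24, 1 member was called lower and 0 higher, with a background of 0.594% lower and 0.152% higher. This was STP14, with a log2 fold change of -0.43 ± 0.09 (limma adjusted p = 0.0464), a call lost when any 1 library was left out. Of 16 nuclear photosynthesis genes, 13 were called lower in atx4/5;jmj24 against Col-0 and 6 against jmj24, and their part in these values was not tested. Leaving out 1 library moved the count of 7 against Col-0 to between 2 and 4, with 2 left without the second atx4/5;jmj24 library or the first Col-0 library of set 2.

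In jmj24/26/28, 2 members were called lower and 0 higher, with a background of 2.58% lower and 1.26% higher. The Col-0 libraries in this comparison and in the comparison of WDR5A_RNAi with Col-0 are those that chose the members, so neither comparison is independent of the choice. The median L of the 32 was -0.29 and 26 lay below 0, against 47.7% of the 19444 genes. AT5G66080 was at 375 and 351 in jmj24/26/28, between Col-0 and the quadruple mutants, with a log2 fold change against Col-0 of -0.81 ± 0.11 (limma adjusted p = 0.000323). AT1G13650 was at 761 and 884 (-0.63 ± 0.12, limma adjusted p = 0.00714), a call lost without the first jmj24/26/28 or the first Col-0 library, where 1 call of 2 was left. In 30 members both jmj24/26/28 libraries lay above all 4 quadruple-mutant libraries. In 23 members they lay below both Col-0 libraries, and in 2 above both. The quadruple-mutant and Col-0 libraries are those that chose the genes. The same counts were not made over all genes, so these describe the members and test nothing.

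In the libraries labelled WDR5A_RNAi, 14 members were called lower and 2 higher against Col-0, with a background of 5.03% lower and 4.52% higher over 24843 genes. AT1G67865 was at 1038 and 924, against 1809 and 1845 in Col-0 (-0.90 ± 0.08, limma adjusted p = 1.06e-05). BGLU43 was at 30.5 and 17.4, close to the quadruple mutants and below the 86.8 and 84.9 of Col-0 (-1.85 ± 0.28, limma adjusted p = 0.000917). PUP5 was at 87.6 and 74.9 (-1.06 ± 0.22, limma adjusted p = 0.00732) and ACS5 at 46.9 and 66.7 (-0.86 ± 0.23, limma adjusted p = 0.0322). AT1G67865, AT4G13150, BGLU43 and AT2G18850 were called whichever of the 4 libraries was left out.

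HSFA6A went the other way in WDR5A_RNAi, at 123 and 243 against 16.4 and 40.1 in Col-0 (2.70 ± 0.67, limma adjusted p = 0.0291). AT1G13650 was also called higher, at 1821 and 1739.9 against 1308 and 1240 (0.48 ± 0.12, limma adjusted p = 0.0208). The call on HSFA6A was lost without the second WDR5A_RNAi or the first Col-0 library, and that on AT1G13650 without each library in turn. NAP was at 459 and 591, above both Col-0 libraries, and was not called. The count of 16 fell to 5 without the second WDR5A_RNAi library, to 7 without the first Col-0 library and to 8 without the second, and was 13 without the first WDR5A_RNAi library.

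The fold changes of WDR5A_RNAi against jmj24/26/28 share no library with the rule. Their standard errors and p-values do, because the fit took all groups of the table, among them those that chose the members. The calls are thus not independent of the choice. In this comparison 10 members were called lower and 2 higher, with a background of 5.02% lower and 5.55% higher, and the median was -0.34. AT1G67865 (1038 and 924 against 1510.1 and 1601) and AT4G13150 (413 and 383 against 657 and 676) were lower, with log2 fold changes of -0.67 ± 0.08 (limma adjusted p = 7.76e-05) and -0.74 ± 0.11 (limma adjusted p = 0.000457). BGLU43 (-1.66 ± 0.28, limma adjusted p = 0.00131) and AT1G69020 (-1.34 ± 0.22, limma adjusted p = 0.0011) were lower too. AT1G13650 was higher by 1.12 ± 0.12 (limma adjusted p = 4.92e-05) and AT5G66080 by 0.44 ± 0.11 (limma adjusted p = 0.0155). AT1G13650, AT1G67865, AT4G13150, AT1G69020 and BGLU43 kept their calls whichever library was left out, and the count of 12 moved to between 6 and 10, with 6 left without the second WDR5A_RNAi library or without either jmj24/26/28 library.

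**Figure D3:**
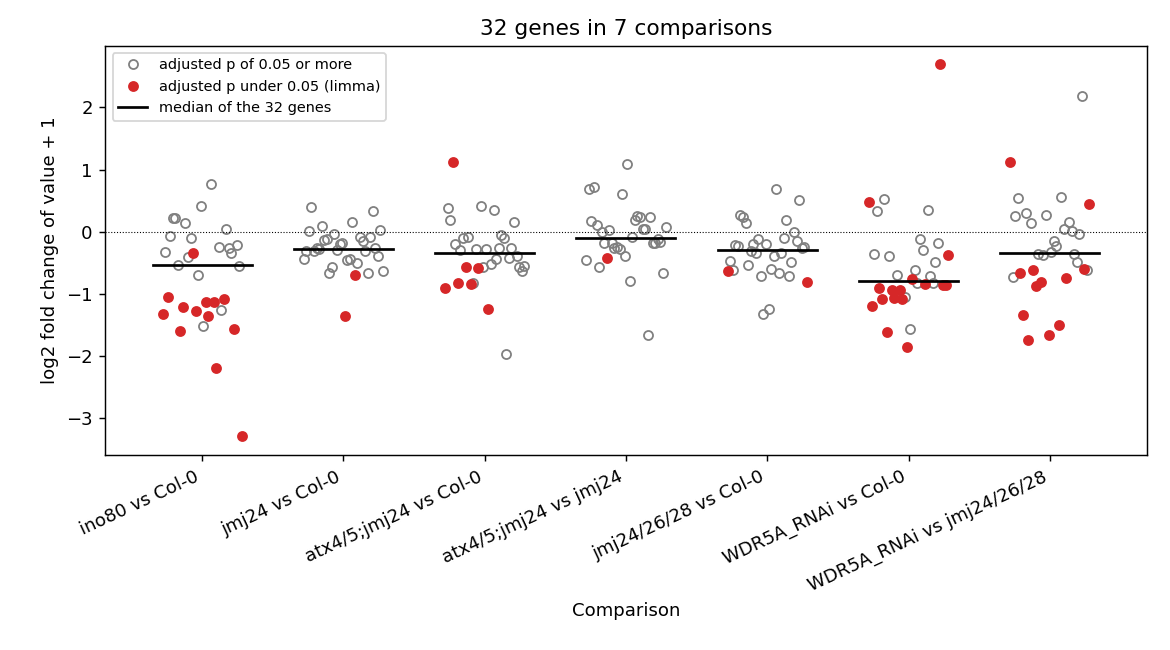
Log2 fold changes of the 32 members (points) in the 7 comparisons the rule did not use, with filled points for an adjusted p under 0.05 in limma. The medians are -0.54 in ino80, -0.79 in WDR5A_RNAi against Col-0 and between -0.34 and -0.10 in the others.

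Over the 7 comparisons, 25 members were called in at least 1 and 7 in none, and 5 were called lower in both ino80 and WDR5A_RNAi against Col-0. Of the 22553 genes tested in all 7 comparisons, 36.9% were called in at least 1 and 1.20% were lower in both ino80 and WDR5A_RNAi, and the shares were 40.3% and 1.39% among the 19422 of them at the Col-0 level of the rule. Set beside the 151 other genes lowered in both quadruple mutants, the share called lower was similar in ino80, with 40.6% of the members, 38.9% of the others and 13.5% of the 19444 genes. It was also similar in WDR5A_RNAi against Col-0, with 43.8%, 37.7% and 6.18%. The shares were 6.25%, 18.7% and 1.68% in jmj24, 18.8%, 49.3% and 5.18% in atx4/5;jmj24 against Col-0, and 6.25%, 41.1% and 3.00% in jmj24/26/28. In atx4/5;jmj24 against jmj24 they were 3.13%, 15.3% and 0.72%. In WDR5A_RNAi against jmj24/26/28 the order was the opposite, with 31.3% of the members, 11.3% of the others and 6.10% of all called lower, and 24.5% of the others called higher. The median log2 fold change there was -0.34 in the members and 0.28 in the others. Members and others were split by their levels in atx1/2 and atx4/5, and 140 of the 151 others had L below -0.5 in atx4/5. By its label atx4/5;jmj24 holds the same atx4 and atx5 mutations, so the shares in it are not free of that choice. None of these differences between the groups of genes was tested.

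**Figure D4:**
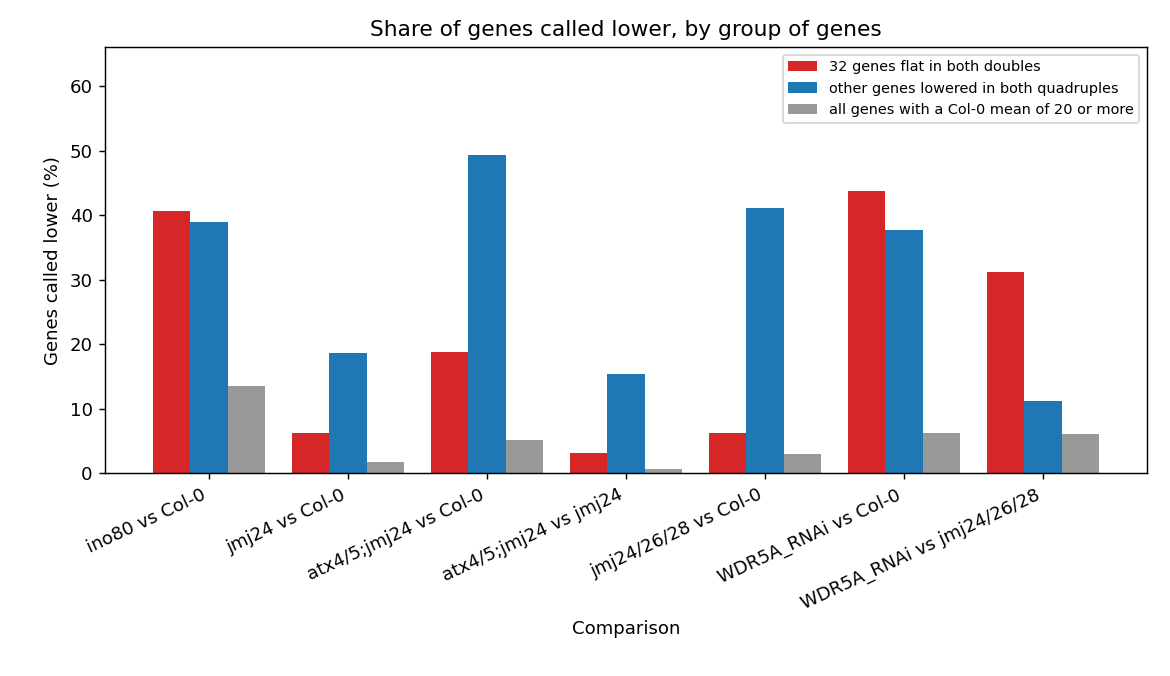
Percent of genes called lower in each comparison tested. Bars are the 32 members, the 151 other genes lowered in both quadruple mutants and all genes at the Col-0 level. The comparisons of jmj24/26/28 and WDR5A_RNAi with Col-0 share their Col-0 libraries with the rule. The members and the others are close in ino80 (40.6% and 38.9%) and apart in jmj24/26/28 (6.25% and 41.1%), and the differences were not tested.

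Col-0 itself varied between tables for some members. Per M of the column total, AT1G13650 was at 44.2 in set 3, 53.7 in set 1 and 3.83 in set 2, and AT5G02865 was at 2.39, 1.27 and 0.237. The Col-0 level of set 2 was at least 2-fold below that of set 3 in 7 members (21.9%), against 19.2% of the other lowered genes and 5.05% of the 19444. In 5 members, AT1G13650, AT1G62510, SPL5, AT5G02865 and AT5G66080, a Col-0 library of another table lay at or below a quadruple-mutant library. The tables were normalised separately and these levels were not tested.

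Whole seedlings were sequenced, so fewer cells of a type and less RNA per cell cannot be told apart. Marker lists of tissues were counted in the quadruple mutants beside backgrounds of 17.1% lower and 16.2% higher in atx1/2/4/5 and 20.1% and 17.8% in atx2/3/4/5. Of 16 nuclear photosynthesis genes tested, 15 were called lower in atx1/2/4/5 and 16 in atx2/3/4/5, and their summed signal was 2.98 to 3.17 M in Col-0, 2.02 to 2.07 M in atx1/2/4/5 and 1.68 to 1.77 M in atx2/3/4/5. Of 11 seed genes, 2 were lower and 4 higher in atx1/2/4/5 and 2 were lower and 2 higher in atx2/3/4/5, with sums of 355 to 623 in Col-0, 2386 to 5617 and 2204 to 2460. Of 8 floral organ genes, 1 was lower and 4 higher in each, with sums of 173 to 189 in Col-0, 977 to 1109 and 338 to 450. Of 14 root genes, 1 was lower in atx1/2/4/5 and 1 higher in atx2/3/4/5, and the sums of 9045 to 10228 and 9803 to 10029 lay inside the Col-0 range of 8511 to 10910. Of 10 shoot meristem genes, 1 was lower and 3 higher in atx1/2/4/5 and 1 lower and 2 higher in atx2/3/4/5, with sums of 2029 to 2147 and 2166 to 2260 against 2397 to 2701. None of the 32 members is in these lists, and the part of tissue makeup in their levels was not tested.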

How the data were processed

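The authors deposited 3 tables of 32548 genes with 24 columns, all of them matched to a sample, and 0 columns without one. The deposited unit is a signal that the authors normalised, with the look of pseudo-counts in which libraries of a table share a size. The submitters' processing notes name HISAT2 2.2.0, edgeR and the build TAIR10. The counter, strand and filters are not given in the sources used here. All 32548 identifiers matched RefSeq TAIR10.1, from which coordinates and sequences were read.

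Genes that reached 1 in 2 or more libraries were analysed as log2(value + 1), a scale that understates folds of low genes, with limma 3.58.1 under R 4.3.3 and statmod 1.5.0. Each fit took all groups of a table, a trend and robust moderation. The plan foresaw count models for raw counts, and these were not run on the normalised signal. The atx contrasts chose the genes, so the members got no test in them, and calls in atx1/2/4/5 and atx2/3/4/5 are used only for marker lists. Tools for the rest were Python 3.11.15, pandas 2.3.3, numpy 2.4.6 and matplotlib 3.10.9. The fit was tested on simulated data.

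The members and all gene lists were chosen with earlier results of these data known. The rule for named genes took the 12 members with the lowest mean L, the 6 highest in Col-0, up to 3 called members per direction and comparison, and those nearest the limits. Other members are named because they are members, after their values were seen. Alternatives were another pseudocount, no filter, no trend, quantile normalisation, equal column totals, a higher Col-0 minimum, a replicate block and leaving out each library. The labels give replicate numbers but do not say whether libraries of the same number were grown or handled together.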

Additional observations from a re-analysis of the deposited data

How the results depend on the processing

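The number of members was 32, and it was 30 with a pseudocount of 4 (27 shared), 27 with a Col-0 mean of at least 50, and 18 with column totals set equal, all of them among the 32. Equal totals moved the median of all genes by 0.14 in atx1/2/4/5 and 0.19 in atx2/3/4/5. Leaving out 1 library gave 28 to 43 members, and 10 of the 32 were kept in all 10 recounts. Leaving out 1 library gave 3 to 10 called members in ino80, 0 to 1 in jmj24, 2 to 4 in atx4/5;jmj24 against Col-0, 0 against jmj24, 1 to 2 in jmj24/26/28, 5 to 13 in WDR5A_RNAi against Col-0 and 6 to 10 against jmj24/26/28. Without a filter on low values the counts were 0 in ino80, 0 in jmj24, 0 in atx4/5;jmj24 against Col-0, 0 against jmj24, 1 in jmj24/26/28, 6 in WDR5A_RNAi against Col-0 and 6 against jmj24/26/28. Without the trend they were 4, 0, 1, 0, 1, 10 and 9 in that order. The call in atx4/5;jmj24 against jmj24 was 0 with a pseudocount of 4. The replicate block gave 0 calls in atx4/5;jmj24 against jmj24 and 6 in jmj24/26/28. Same-numbered libraries deviated together with correlations from -0.005 to 0.108, and 2 pairs cannot show pairing. Over all genes, calls in ino80 fell from 5135 to 243 without a filter and 581 without the trend. The cause of these shifts was not tested. For called members taken one by one, the call was kept in 272 recomputed values and lost in 183, and the direction reversed in 0. Low values rest on few reads, so members under 10 in a library are imprecise.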

Other observations

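The mirror rule took genes with L of 1.5 or more in both quadruple mutants. Of 109 such genes, 47 (43.1%) were near the Col-0 level in atx1/2 and atx4/5, against 32 of 183 (17.5%) among the lowered genes. The direction of each gene is fixed by its rule, and the difference between these shares was not tested. Of the 19444 genes at the Col-0 level, 17479 (89.9%) were near it in atx1/2 and atx4/5.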
